A study of Mus musculus with 15 samples.

Results

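The constitutive distal H3K27Ac regions of mouse islets were the genomic stretches that carried this active chromatin mark under every diet studied, away from the start sites of protein-coding genes. They were chosen by 5 conditions: location on chromosomes 1 to 19, a called H3K27Ac peak in each of the 3 diets after peaks sharing at least 1 bp had been joined, a joined length under 3000 bp, no protein-coding start site within 1 kb and no contact with an H3K27Me3 peak of any diet. Of 25452 joined H3K27Ac regions, 12950 had a peak in all 3 diets, 11687 of these were under the length limit, 3119 of those were free of a start site and 1639 were also free of H3K27Me3. The 1639 regions made up 12.7% of the regions shared by all diets and 6.44% of all H3K27Ac regions. Presence in every list, length, distance from start sites and absence of the repressive mark were the values that chose them, so these are given as a description only.

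The islets came from male CBA mice. One group ate a regular diet (RD), one a high-fat diet (HFD) and one the same high-fat diet supplemented with O304 (HFD-O304), a small molecule that activates the energy sensor AMPK. ChIP-seq was run on pooled, hand-picked islets with antibodies to H3K27Ac and H3K27Me3, with 2 replicates per mark and diet, and the authors merged the replicates before calling broad peaks. Each mark therefore has 1 peak list per diet, no spread between replicates can be measured, and no difference between diets was tested. The 3 H3K27Ac lists rested on 83773042, 95218072 and 84694188 kept fragments for RD, HFD and HFD-O304 and held 16314, 21674 and 20305 peaks. Islets are a mixture of endocrine cells with some vessel, immune and exocrine cells, and a peak list of the whole islet does not say which cells carry the mark. Fewer cells of a type and less mark per cell cannot be told apart.

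Acetylation of lysine 27 on histone H3 is laid down by the co-activators p300 and CBP at promoters and enhancers that are in use. Enhancers are stretches of DNA, often far from a gene, to which transcription factors bind and which raise the activity of promoters in contact with them. In beta cells, factors such as Pdx1, Nkx6-1, Neurod1, Mafa, Foxa2 and Rfx6 bind enhancers of genes for insulin synthesis, glucose sensing and exocytosis. H3K27Me3 on the same residue is placed by Polycomb complexes and goes with repression, and a single histone tail cannot carry both modifications on that lysine.

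The central 300 bases of 6 of these regions are printed here as examples of sequence rich and poor in CpG. They are the GRCm38 reference, which is not from the CBA strain, plus strand, and capitals mark every match to 1 of 21 short motifs searched on both strands. The first lies 16.9 kb downstream of the start site of Nkx6-1, a beta cell transcription factor, at chr5:101647929-101648228, and holds no match. An intronic stretch of the calcium channel gene Cacna1d (chr14:30164246-30164545) follows, with a MAF match and overlapping RFX and NFI matches. The stretch 33.4 kb upstream of Pik3r1, a regulatory subunit of the insulin-signalling kinase PI3K, at chr13:101801450-101801749, has an AP-1 and a forkhead match. The intronic stretch of the clock gene Per2 (chr1:91436734-91437033) has a MAF and an AP-1 match. The stretch 7.29 kb upstream of Nr4a1, an immediate early gene for a nuclear receptor, at chr15:101246346-101246645, has 2 NF-Y matches, a forkhead and an ETS match. The last, 2.76 kb upstream of Rabepk at chr2:34802501-34802800, belongs to the region whose lowest diet had the highest fold among those under 50% repeat-masked, and has an ETS match.
Nkx6-1: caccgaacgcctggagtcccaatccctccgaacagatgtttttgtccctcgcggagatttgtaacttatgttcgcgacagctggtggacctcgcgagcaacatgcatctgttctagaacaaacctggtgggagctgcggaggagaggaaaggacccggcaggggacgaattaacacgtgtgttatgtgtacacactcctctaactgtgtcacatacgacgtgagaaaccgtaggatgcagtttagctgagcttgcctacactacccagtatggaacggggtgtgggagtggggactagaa
Cacna1d: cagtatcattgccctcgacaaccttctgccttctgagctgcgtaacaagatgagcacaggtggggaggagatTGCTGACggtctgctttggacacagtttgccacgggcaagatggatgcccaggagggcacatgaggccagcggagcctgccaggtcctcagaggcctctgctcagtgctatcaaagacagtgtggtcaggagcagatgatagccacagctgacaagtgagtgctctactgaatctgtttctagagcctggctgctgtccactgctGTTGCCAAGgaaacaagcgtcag
Pik3r1: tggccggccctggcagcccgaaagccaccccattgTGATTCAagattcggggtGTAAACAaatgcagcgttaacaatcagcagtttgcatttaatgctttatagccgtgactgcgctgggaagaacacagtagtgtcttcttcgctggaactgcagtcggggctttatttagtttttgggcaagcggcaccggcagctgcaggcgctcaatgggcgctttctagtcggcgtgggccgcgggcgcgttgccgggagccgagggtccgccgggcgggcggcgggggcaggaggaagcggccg
Per2: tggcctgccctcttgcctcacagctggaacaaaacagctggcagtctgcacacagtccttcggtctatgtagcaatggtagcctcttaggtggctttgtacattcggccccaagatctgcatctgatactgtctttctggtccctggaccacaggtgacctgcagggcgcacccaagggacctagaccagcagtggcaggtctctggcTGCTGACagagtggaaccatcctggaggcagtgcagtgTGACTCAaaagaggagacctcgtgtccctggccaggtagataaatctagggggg
Nr4a1: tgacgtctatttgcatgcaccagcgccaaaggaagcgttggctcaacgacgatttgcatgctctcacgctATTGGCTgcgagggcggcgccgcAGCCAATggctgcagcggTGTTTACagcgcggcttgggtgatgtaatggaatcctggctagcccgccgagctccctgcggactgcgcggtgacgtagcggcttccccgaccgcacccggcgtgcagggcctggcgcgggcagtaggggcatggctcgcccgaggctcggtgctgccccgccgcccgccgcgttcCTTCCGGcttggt
Rabepk: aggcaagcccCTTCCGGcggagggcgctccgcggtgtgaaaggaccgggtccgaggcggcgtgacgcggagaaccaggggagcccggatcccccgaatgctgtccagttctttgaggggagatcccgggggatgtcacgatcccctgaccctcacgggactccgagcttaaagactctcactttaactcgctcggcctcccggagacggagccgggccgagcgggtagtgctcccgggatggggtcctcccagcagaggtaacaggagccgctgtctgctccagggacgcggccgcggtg

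The Cacna1d and Per2 sequences show the CpG-poor type that made up most of the 1639 regions. The Nkx6-1, Pik3r1, Nr4a1 and Rabepk sequences are of the CpG-rich type, which is therefore more common among the printed sequences than among the regions. The median CpG ratio, the number of CG pairs over the number expected from base composition, was 0.325 in the central 300 bases (quartiles 0.177 and 0.581), against 0.830 in the 8166 regions of the same length limit that lay at protein-coding promoters in all diets without H3K27Me3, hereafter the constitutive promoters. Median GC content was 54.7% in the distal regions and 67.7% in the constitutive promoters, and 41.7% in 239597 windows of 300 bases taken every 10 kb along the chromosomes. A CpG ratio of at least 0.6 together with a GC content of at least 50%, a limit set after the values were seen, held for 383 distal regions (23.4%, 95% Wilson interval 21.4 to 25.5%) and for 83.3% of the constitutive promoters. Intervals here cover counting error over regions only.

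The regions were short and modestly enriched. Their joined length had a median of 1359 bp and ranged from 298 to 2989 bp, and the shortest region left out by length alone measured 3001 bp. The stretch called in all 3 diets had a median length of 492 bp, and in the median region 48.5% of the joined length was called in every diet. In 38 regions no base was called in all 3 diets, so the peaks touched only in a chain. The called length per diet had a median of 705 bp in RD, against 949 bp in HFD and 960 bp with HFD-O304. The median fold enrichment over the uniform background, as given by the peak caller, was 2.57 in RD, 2.60 in HFD and 2.65 with HFD-O304. In the constitutive promoters it was 2.98, 3.20 and 3.20. A −log10 q of at least 5 in all 3 diets was reached by 321 distal regions (19.6%) and by 62.1% of the constitutive promoters. The weakest distal peaks lay at the limit of calling, with a lowest fold of 2.28 in RD, 2.17 in HFD and 2.25 with HFD-O304.

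More of the regions lay between genes than within them. The midpoint was intergenic in 909 regions (55.5%, 53.0 to 57.9%), in an intron of a protein-coding gene in 629 (38.4%, 36.1 to 40.8%) and in an exon in 101 (6.16%, 5.10 to 7.43%). The nearest protein-coding start site was at a median distance of 18.99 kb, with quartiles at 7.52 and 47.9 kb. The distance was 1 to 5 kb for 252 regions, 10 to 50 kb for 714 (43.6%) and over 100 kb for 187 (11.4%). The midpoint was upstream of that start site in 789 regions (48.1%, 45.7 to 50.6%), so the upstream and downstream sides were used to a similar extent. The closest region began 1008 bp from a start site, and 77 (4.70%) had an edge within 2 kb of one. Chromosome 11 held 1.08 regions per Mb, chromosome 17 held 1.06 and chromosome 16 held 0.448.

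The name enhancer was checked against annotation the selection did not use. A start site of a non-coding gene lay within 1 kb of 289 of the regions (17.6%, 15.9 to 19.6%). The share was 6.71% of the 6481 distal regions that were free of H3K27Me3 but not called in all diets. It was 6.35% of 1480 constitutive distal regions that carried H3K27Me3 as well. Both groups were shorter, with median lengths of 547 and 769 bp against 1359 bp, and the part of length in the difference was not tested. The constitutive promoters, of median length 1307 bp, had such a start site in 16.9%, and all H3K27Ac regions in 12.3%. Among the 289 distal regions, long intergenic RNA genes accounted for 133 and micro-RNA genes for 19. Small nuclear RNA genes accounted for 16 and small nucleolar RNA genes for 16, where a region can count under more than 1 type. Of the 289, 155 were CpG-rich, against 228 of the 1350 regions with no such start site (53.6% and 16.9%). The regions are therefore distal to protein-coding start sites only, and are called distal H3K27Ac regions here rather than enhancers. Taking start sites of genes of every type into account left 1350 regions.

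The most enriched regions were mostly of the CpG-rich type. Among the 50 with the highest fold in their lowest diet, 36 were CpG-rich, 24 had a non-coding start site within 1 kb, 9 had a gene for a small nuclear or nucleolar RNA, 8 were at least 50% repeat-masked and 4 had none of these features. Ordered by fold in the lowest diet, the weakest 546 regions were CpG-rich in 8.79% of cases, the next 546 in 18.3% and the strongest 547 in 43.0%. The share within a protein-coding gene went the other way, at 59.3%, 47.3% and 27.1%.

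**Figure D1:**
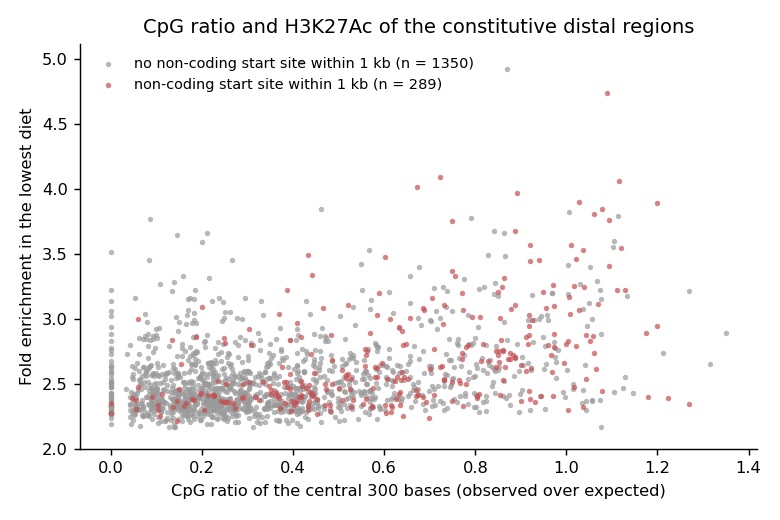
CpG ratio (observed over expected) of the central 300 bases against H3K27Ac fold enrichment in the lowest of the 3 diets, 1 point for each of the 1639 regions, with the 289 that lie within 1 kb of a non-coding start site in red. Most points sit below a CpG ratio of 0.6 and a fold of 3, and the CpG-rich side holds more of the points above 3.5 and more of the red points.

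Excluding regions with at least 50% repeat-masked bases and ordered by the fold in the lowest diet, the first was the Rabepk region (chr2:34802284-34803058, intergenic), 775 bp long, with a fold of 4.92 in RD, 5.06 in HFD and 5.32 with HFD-O304. Rabepk encodes a partner of the small GTPase Rab9 in transport from endosomes to the Golgi. The next, 21.7 kb downstream of a start site of the sorting nexin gene Snx6, reached 4.73, 4.99 and 5.89. A region 3.57 kb upstream of Hic1, a transcriptional repressor, had folds of 4.09, 4.33 and 4.46. It lay within 1 kb of the starts of the micro-RNA genes Mir132 and Mir212. These micro-RNAs are made from a common precursor that is induced by cAMP signalling. A region in an intron of Tex14 had 4.601, 4.07 and 4.06, and one 52.4 kb downstream of Zfp958, a zinc finger gene, 4.03, 4.02 and 4.28. The order of the diets differed from region to region.

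Several of the strongest regions stood in small arrays of RNA genes. Inside Tex14 on chromosome 11, 4 regions lay between 87442677 and 87471895. Each had within 1 kb the start of 1 of the genes Rnu3b1, Rnu3b2, Rnu3b3 and Rnu3b4. These genes encode the U3 small nucleolar RNA, which acts in ribosomal RNA processing. The folds of the 4 regions lay between 3.22 and 4.601 across regions and diets. On chromosome 12, 5 regions lay between 54709812 and 54739152 near Eapp and Snx6. Each had the start of a small nuclear RNA gene within 1 kb, and their folds were 3.10 to 5.89. On chromosome 11, 3 regions between 101641097 and 101659246 near Arl4d and Rdm1 had folds of 2.72 to 3.47. Starts of small nuclear RNA genes lay within 1 kb of them, including that of Rnu2-10, for the U2 RNA of the spliceosome. The copies of such genes are nearly identical, and how reads that match several copies were placed is not given in the sources used here, so the values of single copies are uncertain. Single RNA genes with a region included Mir148a (3.32, 3.91 and 3.72 in RD, HFD and HFD-O304), Mirlet7i (2.89, 3.44 and 3.43), Mir7b (2.76, 3.54 and 3.21), Mir203 (2.54, 2.54 and 2.93), Rn7sk (3.28, 2.97 and 2.60) and Terc, the RNA of telomerase (2.81, 2.90 and 3.0).

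Most distal regions stood alone. Another one lay within 12500 bp of 217 (13.2%, 11.7 to 15.0%), and these formed 101 groups, of which 9 had 3 or more members and the largest 5. The 5-member groups were the RNA gene array at Eapp and Snx6 and a group near Irf2bpl and Lrrc74a (chr12:86805045-86837028). Assigned to the nearest protein-coding start site, the 1639 regions belonged to 1339 genes, 1112 of which had 1 region and 50 of which had 3 or more. Of the 1339 genes, 70.1% (67.5 to 72.4%) had H3K27Ac at a promoter in all 3 diets, against 47.9% of all protein-coding genes. H3K27Me3 at a promoter in any diet was found for 13.2% (11.5 to 15.1%) and 13.5%. The nearest gene is a convention, and no contact with it was measured.

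The gene with most regions was Zmiz1, a transcriptional co-regulator that is a candidate gene for type 2 diabetes risk in humans, with 7 regions from 351 kb upstream of a start site to 16.7 kb downstream of one. The strongest of them, 80.7 kb upstream, had folds of 3.36 in RD, 3.20 in HFD and 3.30 with HFD-O304, and the other 6 lay between 2.33 and 2.96. Irf2bp2, a repressor partner, had 6, spread from 9.70 to 161 kb away, with folds between 2.28 and 2.97. Celf4, an RNA-binding protein of neurons and endocrine cells, had 5, of which the strongest by its lowest diet had 2.84, 2.92 and 2.96. Maml3, a co-activator of Notch signalling, also had 5, the strongest with 2.73, 2.84 and 2.92. Ahdc1 had 4, with folds between 2.29 and 2.82.

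Genes of the secretory machinery, insulin signalling and immediate early response were often next to a distal region. Across all 20807 protein-coding genes, 6.44% were nearest to at least 1. Of 12 insulin and FoxO signalling genes 6 were, as were 6 of 12 immediate early genes, 9 of 20 granule and exocytosis genes, 4 of 14 unfolded protein response genes, 7 of 26 islet transcription factors, 4 of 15 channel and receptor genes, 3 of 13 clock genes and 2 of 9 hormone genes. None of 9 AMPK subunits and kinases and none of 4 transcription factors of alpha and delta cells was. The lists were not tested, since the genes differ in how much of the genome lies nearest to them. That stretch had a median of 43.5 kb over all protein-coding genes and 111 kb over genes with a distal region. It was 332 kb over the islet transcription factors, 143 kb over the insulin and FoxO genes and 79.3 kb over the granule genes. The immediate early genes had 64.1 kb, the channel and receptor genes 57.3 kb and the unfolded protein response genes 49.9 kb. The clock genes had 49.1 kb, the hormone genes 47.1 kb, the AMPK genes 34.1 kb and the alpha and delta cell factors 403 kb. Counted instead as genes with a distal region within 100 kb of a start site, the share was 19.8% of all genes, 6 of 12 insulin and FoxO genes, 6 of 12 immediate early genes, 12 of 20 granule genes, 7 of 15 channel and receptor genes, 6 of 13 clock genes, 6 of 14 unfolded protein response genes, 4 of 9 hormone genes and 9 of 26 islet transcription factors (34.6%). By this count 3 of 9 AMPK genes (33.3%) had one as well, and 0 of 4 alpha and delta cell factors. Of the other cell types' lists, 4 of 12 acinar genes (33.3%), 2 of 10 macrophage genes, 1 of 9 ductal, 1 of 10 endothelial, 1 of 11 liver, muscle and red cell genes and 0 of 9 stellate genes did.

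**Figure D2:**
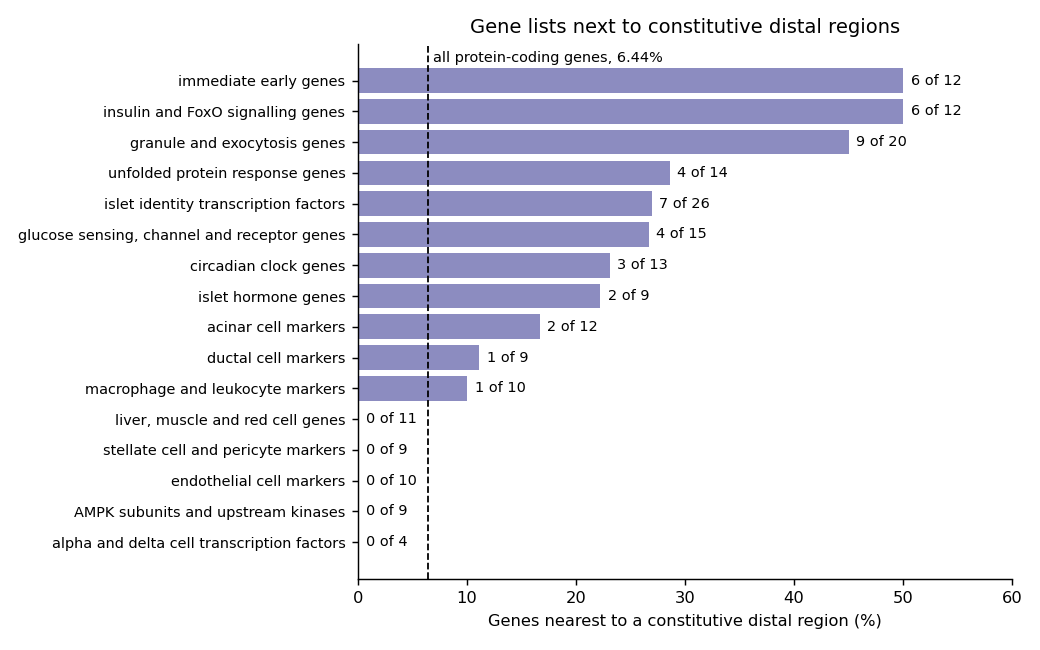
Share of the genes of each of 16 lists that were nearest to at least 1 constitutive distal region, with the counts at the bars and the share over all protein-coding genes (6.44%) as a dashed line. Immediate early, insulin and FoxO, and granule genes reach 45 to 50%, and exocrine, immune and vessel marker lists lie at 0 to 16.7%, with 0 to 2 genes each. The acinar, ductal and macrophage lists are above the dashed line.

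The marker lists of other cells had 0 to 2 genes with a region each, beside the 6.44% of all genes. Among acinar markers 2 of 12 genes (16.7%) had one, Bhlha15 (2.38, 2.28 and 2.40 in RD, HFD and HFD-O304) and Cpa1 (2.69, 2.55 and 2.57). Among ductal markers 1 of 9 (11.1%) did, Krt8 (2.50, 2.78 and 2.57), and among macrophage markers 1 of 10 (10.0%), Spi1 (2.74, 2.77 and 2.43). None of 10 endothelial, 9 stellate and pericyte and 11 liver, muscle and red cell genes had one. At promoters, H3K27Ac in all 3 diets was found for 22 of 26 islet transcription factors, 1 of 12 acinar genes (Bhlha15), 4 of 9 ductal, 1 of 10 endothelial, 0 of 10 macrophage and 0 of 9 stellate genes. Of the hormone genes, Ins2 and Ucn3 had a promoter peak in all diets and Ins1 in RD and HFD, while Gcg, Sst, Ppy, Pyy, Iapp and Ghrl had one in no list. The share of other cells in these islets was not tested.

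Of the islet transcription factors, Prox1, a homeodomain factor, had the region with the highest folds, 3.65 kb upstream of a start site on chromosome 1, with 3.06 in RD, 3.07 in HFD and 3.09 with HFD-O304. The Nkx6-1 region had 2.66, 2.63 and 2.60, and a region 36.9 kb upstream of Nkx2-2, a repressor that keeps beta cell identity, had 2.61, 2.60 and 2.59. A region 7.28 kb downstream of the start of Pdx1, a main activator of the insulin gene, had 2.33, 2.25 and 2.47. Its peaks covered 373, 725 and 1135 bp and had no base in common to all 3 diets, so these values do not describe the same bases. Isl1, a LIM homeodomain factor of all islet endocrine cells, had one 9.39 kb downstream with 2.48, 2.69 and 2.53. Foxa2, a pioneer factor, had one 2.00 kb upstream with 2.63, 2.92 and 2.52, and Foxo1, the forkhead factor restrained by insulin signalling, had a pair 69.7 and 72.1 kb upstream, the stronger with 2.77, 2.94 and 2.64. Across the 8 regions of these genes the largest ratio between diets was 1.16. The length limit left out much of the mark at such genes, because 14 of the 26 had a region of at least 3000 bp shared by all diets at a start site, against 3.71% of all protein-coding genes.

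The 11 regions at granule and exocytosis genes lay between 2.23 and 3.08 in every diet, with no ratio between diets above 1.18. Snap25, which drives fusion of granules with the membrane, had 2.84, 3.0 and 3.07 in RD, HFD and HFD-O304. Syt7, a calcium sensor of exocytosis, had 2 intronic regions, with 2.58, 2.61 and 2.58 in the stronger and 2.30, 2.30 and 2.33 in the weaker. Scg2, a granin, had one in an exon 3.96 kb downstream of its start (2.45, 2.29 and 2.39) and one 42.2 kb upstream (2.35, 2.31 and 2.72), although Scg2 had no promoter peak in all 3 diets. Slc30a8, the zinc transporter of insulin granules, had a region 24 kb upstream with 2.86, 2.45 and 2.67, of which 91.9% was repeat-masked. Cpe, Ptprn, Ptprn2, Rab27a and Scg3 had 1 each.

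Of the channel and receptor genes of stimulus-secretion coupling, Cacna1d, the L-type calcium channel subunit named above, had 2.56, 2.67 and 2.82, and Cacna1c, its close relative, had 2.56, 2.45 and 2.78 in an exon and 2.38, 2.38 and 2.56 in an intron. Abcc8, the sulfonylurea receptor, had an intronic region 3.79 kb downstream of its start with 2.30, 2.37 and 2.44. HFD-O304 was the highest diet in these 4 regions, at most 1.14-fold above the lowest. It was the highest diet in 42.3% of all the distal regions, so nothing is read from these few. The hormone genes Ppy (2.54, 2.58 and 2.85) and Pyy (2.52, 2.32 and 2.38) had 1 region each, and Ins1, Ins2 and Iapp, the hormone genes of beta cells, had none.

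Among insulin and FoxO signalling genes, Irs1, the substrate that couples the receptor to PI3K, had the largest spread, with 2.80 in RD, 3.02 in HFD and 3.46 with HFD-O304 in its intron 8.03 kb downstream of the start. Irs2, the main such substrate in beta cells, had 2.61, 2.37 and 2.46 at 90.2 kb upstream and 2.43, 2.33 and 2.36 at 146 kb downstream. Pik3r1 had 2.40, 2.65 and 2.42 in the upstream region printed above and 2.40, 2.22 and 2.36 in an intron. Insr (2.67, 2.64 and 2.81), Akt1 (2.55, 2.41 and 2.56) and Tsc1 (2.49, 2.48 and 2.82) had 1 each.

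The 8 regions of immediate early genes had median folds of 3.09 in RD, 2.77 in HFD and 3.04 with HFD-O304. The Nr4a1 region printed above had 3.27, 3.48 and 3.52, and one farther upstream had 2.67, 2.71 and 2.75. Fos, a subunit of AP-1, had 3.33, 3.73 and 3.71 at 18.6 kb upstream and 2.44, 2.70 and 3.16 at 21.3 kb upstream. The latter, at 1.30-fold, was the largest ratio between diets in any list, on called lengths of 1116, 1794 and 533 bp. Atf3, also a stress-response factor, had 4.05, 4.49 and 3.90 in a region 6.52 kb upstream, within 1 kb of the start of a non-coding gene. Fosb had 3.10, 2.60 and 2.85, Jun 2.78, 2.60 and 2.91, and Egr1 3.08, 2.84 and 2.89. Of the other unfolded protein response genes, Ern1, the sensor kinase IRE1, had 3.21, 3.02 and 3.37. The start of Snord104, a small nucleolar RNA gene, lay within 1 kb of the Ern1 region. Hsp90b1, a chaperone of the endoplasmic reticulum, had 2.63, 3.20 and 3.30, and Creb3l2 had 2.42, 2.24 and 2.28. Among clock genes, Per2 had 2 intronic regions, with 2.44, 2.25 and 2.29 in the stronger. Nr1d1, a repressor of the clock, had 2.65, 3.09 and 2.61, and Rora, an activator, had 2.40, 2.52 and 2.43 in an intron.

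**Figure D3:**
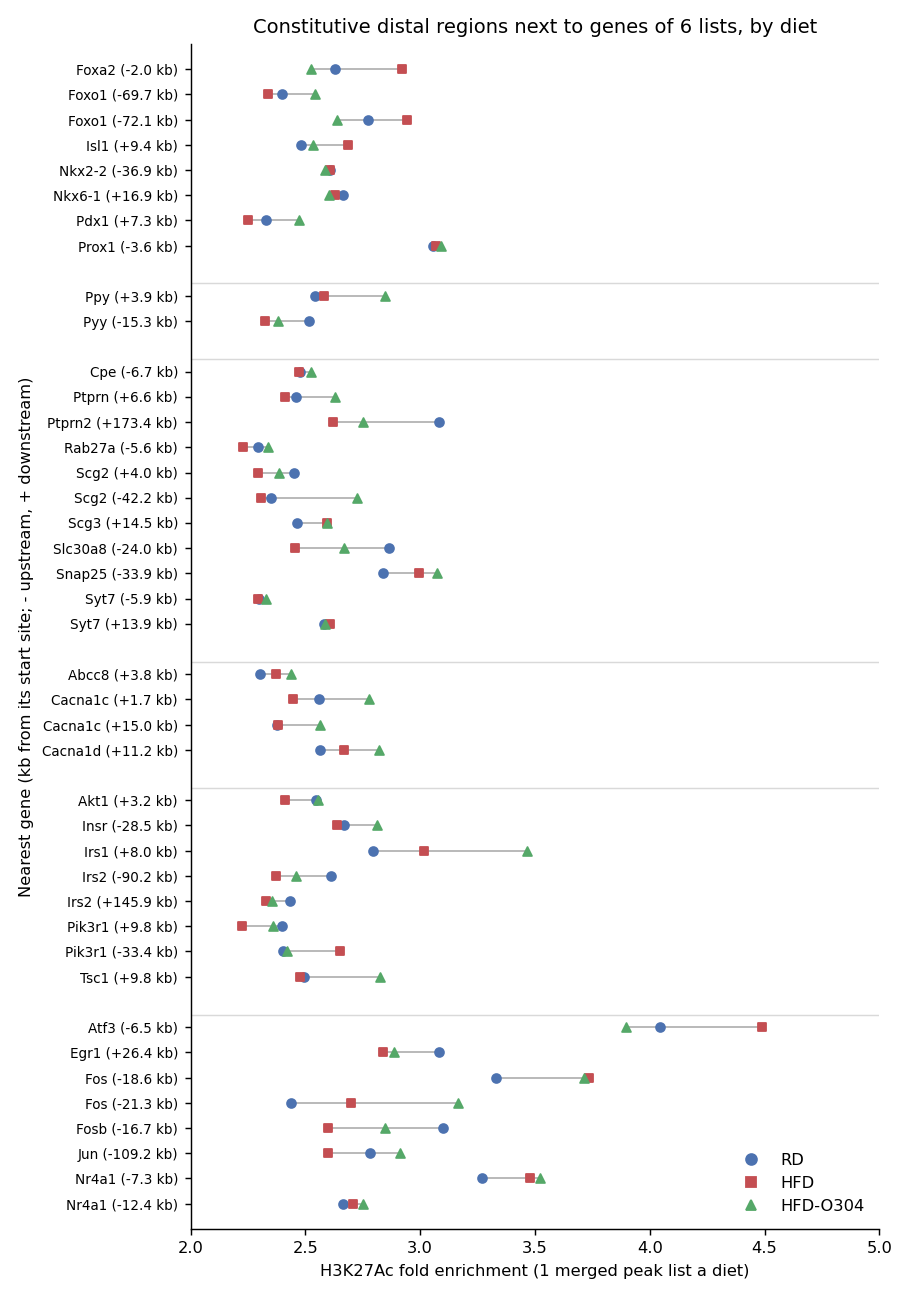
H3K27Ac fold enrichment in RD, HFD and HFD-O304 of each constitutive distal region nearest to a gene of 6 lists (from the top, islet transcription factors, hormone genes, granule genes, channels, insulin and FoxO signalling, immediate early genes), 1 value per diet from a merged list, leaving out 1 channel gene that is not reported here, with the distance from the start site in brackets. The 3 symbols of a row mostly lie close together, and the highest rows are those of Atf3, Fos and Nr4a1.

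Between diets, the fold of a distal region varied little. The highest diet exceeded the lowest by less than 25% in 1507 of the 1639 regions (91.9%), the median ratio of highest to lowest was 1.11, and 5 exceeded 1.5-fold. The highest value was in RD in 480 regions, in HFD in 466 and in HFD-O304 in 693. Since a peak in every list was a condition, each value was bounded below by the calling limit, and regions that fell under it in 1 diet are not among these, so the small ratios are partly fixed by the selection and nothing is read from them. Across the 1639 regions, Spearman's rank correlation of folds was 0.64 for RD with HFD, 0.66 for HFD with HFD-O304 and 0.61 for RD with HFD-O304. The points share the genome sequence and the peak caller, and regions are not replicates.

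From RD to HFD, the question was which active regions shifted with the high-fat diet. The median ratio of HFD to RD was 1.00 in the distal regions and 1.06 in the constitutive promoters. Of the distal regions, 25 (1.53%) were at least 25% higher in HFD and 37 (2.26%) at least 20% lower, the same ratio turned round, where of all 13882 H3K27Ac regions called in both lists 5.37% were higher and 1.2% lower. Among the constitutive promoters 654 were higher and 32 lower. With ratios centred on the median of all regions, the distal counts were 12 higher and 56 lower. Without the regions that were at least 50% repeat-masked, 24 were higher and 9 lower, so most of the lower ones lay in repeats. The share of all H3K27Ac regions was not computed with centred ratios or without repeats, so these counts cannot be set against it. The largest increases outside repeats were near Zfp846 (2.81 in RD and 3.80 in HFD), Pim1, a kinase gene (2.51 and 3.40), Ppm1h, a phosphatase gene (2.54 and 3.43), and Foxj2, a forkhead gene (3.34 and 4.50), each 1.35-fold. The called lengths at Ppm1h were 1548 bp in RD and 410 bp in HFD, so the folds there are averages over different bases. The largest decreases under the same repeat limit were in introns of Kcnh1, Idh2, the mitochondrial isocitrate dehydrogenase (3.25 in RD and 2.33 in HFD), Tex14, at Rnu3b4 (4.45 and 3.22), and Knstrn (3.31 and 2.50).

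The Kcnh1 region (chr1:192453696-192456414), in a potassium channel gene, had the largest spread of all, with 9.83 in RD, 6.86 in HFD and 2.34 with HFD-O304. Its peaks covered 273 bp in RD, a longer 2121 bp in HFD and 932 bp with HFD-O304 and had no base in common to all 3 diets, so these values do not describe the same bases.

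From HFD to HFD-O304, which asks what the compound altered on the high-fat diet, the median ratio was 1.02 in the distal regions and 1.00 in the constitutive promoters. At least 25% higher were 29 distal regions (1.77%), and at least 20% lower were 13 (0.793%), against 1.47% and 1.24% of the 15944 regions called in both lists. Without the regions that were at least 50% repeat-masked, 19 were higher and 10 lower, and the share of all H3K27Ac regions was not computed this way. Outside repeats, the largest increases were near Fat1, a protocadherin (2.43 in HFD and 3.38 with HFD-O304), Slc47a1, an organic cation transporter (3.33 and 4.53), Ptpn1, the phosphatase PTP1B that acts on the insulin receptor (2.20 and 2.93), and Eapp (3.41 and 4.51). In RD these 4 had 2.57, 3.57, 2.85 and 3.70. The called lengths in HFD and HFD-O304 were 1434 and 524 bp at Fat1 and 1281 and 450 bp at Eapp. The folds there are averages over different bases. Slc47a1 had 706 and 682 bp and Ptpn1 508 and 367 bp. The HFD-O304 value was the highest of the 3 diets in all 4, which their choice by this ratio favours. The largest decreases under the same limit, besides Kcnh1, were near Prrc2b (3.69 and 2.71), Noct, a rhythmically expressed nuclease gene (3.48 and 2.64), and Ywhaz, a 14-3-3 protein gene (3.28 and 2.51). All 3 were lower in RD than in HFD, at 3.03, 2.80 and 2.82. Their choice by the same ratio favours a high HFD value, so nothing is read from the place of RD in either set.

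From RD to HFD-O304, 36 distal regions (2.20%) were at least 25% higher and 26 (1.59%) at least 20% lower, against 5.48% and 0.926% of 13494 regions called in both lists, with a median ratio of 1.02. Centred ratios gave 11 higher and 51 lower. Without the regions that were at least 50% repeat-masked, 34 were higher and 5 lower. For neither setting was the share of all H3K27Ac regions computed. The 3 comparisons share their lists, and without replicate lists none of these counts can be set against experimental error.

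**Figure D4:**
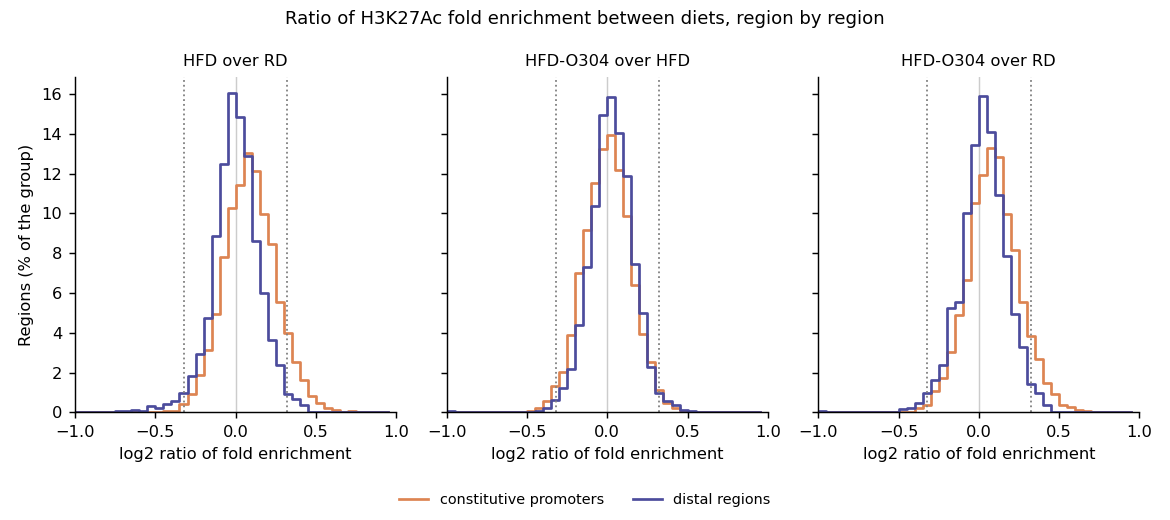
Distribution of the log2 ratio of H3K27Ac fold enrichment for HFD over RD, HFD-O304 over HFD and HFD-O304 over RD, as the percentage of regions per bin, for the 1639 distal regions and the 8166 constitutive promoters. Dotted lines mark 25% higher and 20% lower and values past the axis are drawn in the end bins. In the comparisons with RD the promoters lie to the right of the distal regions, and between HFD-O304 and HFD both centre near 0.

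The CpG-rich and CpG-poor regions had different values in each diet. The 383 CpG-rich regions had median folds of 2.76 in RD, 2.91 in HFD and 2.94 with HFD-O304, and the 1256 others 2.54, 2.54 and 2.59. At least 25% higher in HFD than RD were 13 of the 1256, and at least 20% lower were 35. Over all 1639 distal regions the counts were 25 and 37. Over all H3K27Ac regions called in both lists the shares were 5.37% and 1.2%. At least 50% repeat-masked were 13.9% of the 1256 and 0.783% of the CpG-rich regions, and the part of repeats was not tested. The 34 regions with a small nuclear, nucleolar or Cajal body RNA gene had the highest medians of the subsets examined, 3.19, 3.08 and 3.33.

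Motif content was read from the central 300 bases on both strands, as exact letters. At least 1 of the 21 motifs was present in 55.8% of the regions. Of motifs of islet factors, the MAF site TGCTGAC was in 7.08% (5.93 to 8.42%) and the RFX site GTTGCCA in 5.98% (4.93 to 7.23%) of the distal regions, against 3.39% and 2.52% of the constitutive promoters and 4.07% and 2.73% of the windows along the genome. The E-box CAGATGG bound by Neurod1 was in 8.42%, 3.0% and 5.90%, and the forkhead site TGTTTAC of Foxa and Foxo factors in 4.51%, 1.51% and 4.45%. The homeobox letters TAATTA, which are AT-rich, were in 3.66%, 0.820% and 10.7%. AP-1 (TGANTCA) was in 10.3%, 2.95% and 8.90%, and NFI (CTTGGCA) in 6.28%, 3.27% and 4.62%. The GC-rich letters of SP/KLF (GGGGCGGGG), ETS (CCGGAAG) and the CTCF core (AGGGGGC) were less frequent in the distal regions than in the promoters. SP/KLF was in 5.00% and 14.2%, ETS in 4.51% and 11.8% and the CTCF core in 8.54% and 13.2%. All were above their shares along the genome (0.542%, 0.899% and 2.38%), and the part of base composition in these shares was not tested. The cAMP response element TGACGTCA was in 1.22%, 1.73% and 0.160%. The distal regions not called in all diets held MAF, RFX and E-box letters in 6.82%, 4.44% and 9.04% of their central windows, and SP/KLF in 1.90%. In 32817 RefSeq promoter windows of 300 bases (GRCm38), MAF, RFX and E-box letters were found in 4.67%, 4.38% and 5.31%. A match is a description of letters and not evidence that a factor binds.

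The CpG-rich subset accounted for much of the SP/KLF, ETS and CTCF core matches. SP/KLF was in 12.8% of the CpG-rich regions and 2.63% of the others, ETS in 11.2% and 2.47%, and the CTCF core in 14.4% and 6.77%. The islet-type letters were more frequent among the others, with the MAF site in 4.70% and 7.80%, the E-box in 4.44% and 9.63% and the forkhead site in 2.09% and 5.25%, while RFX was alike at 5.74% and 6.05%.

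Some motifs were more frequent at the centres of the regions than in the flanks. With a median region length of 1359 bp, these flanks lay largely outside the regions. Within 200 bases of the centre MAF matches occurred 0.287 times per kb against 0.151 at 1100 to 1500 bases away, a ratio of 1.90, and RFX matches had a ratio of 2.09. The ratio was 5.57 for SP/KLF, 3.5 for ETS, 1.96 for the CTCF core and 6.86 for the cAMP response element, the last on 24 matches at the centre and 7 in the flanks. It was 1.19 for the E-box, 1.10 for the forkhead site and 0.480 for the homeobox letters. Median GC content was 54.7% in the central 300 bases and 54.0% in the central 600, which do not reach the flanks. GC content of the flanks is not given here, and the part of base composition in these ratios was not tested.

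**Figure D5:**
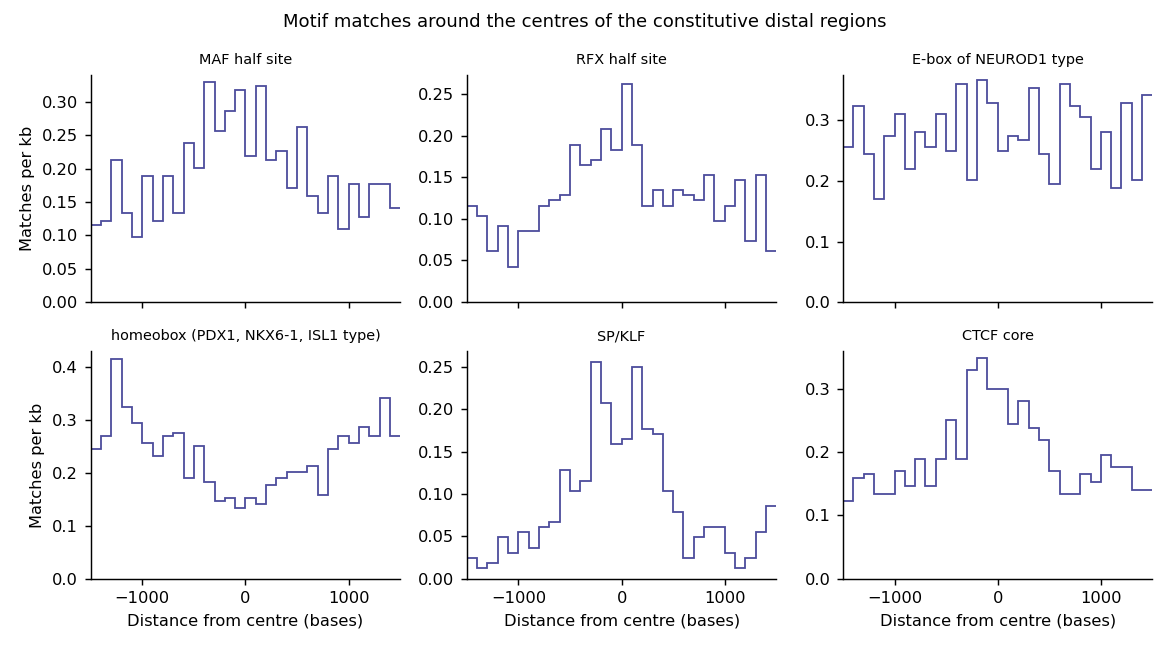
Matches per kb of 6 motifs in bins of 100 bases against the distance from the centre of the 1639 distal regions, both strands. MAF, RFX, SP/KLF and CTCF core matches peak around the centre, E-box matches show no clear peak and homeobox matches dip there.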

How the data were processed

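Islet chromatin of CBA mice was profiled by ChIP-seq for H3K27Ac and H3K27Me3 under RD, HFD and HFD-O304, and samples were grouped by mark and diet from their titles. Of 15 samples, 12 were ChIP samples and 3 inputs, which were not used here. Per the file headers and the methods, the authors aligned paired reads to GRCm38 with bowtie2, merged 2 replicates per group and ran MACS 2.1.2 in broad mode at a q-value cutoff of 0.01 in the headers, with 1 fragment kept per position, no control and a uniform background. The deposited lists give the pileup, a coverage signal, the −log10 q and the fold enrichment, a ratio to that background. The −log10 p of each of the 6 lists was not used. A deeper list can call lower folds.

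Peaks were joined with Python 3.11.15, pandas 2.3.3 and numpy 2.4.6, and annotated with GENCODE release 21 for the mouse, using every transcript start of protein-coding genes. The fold of a region was the mean over its peaks in a diet, weighted by length (1628 of the 1639 regions had a single peak in each diet). The peaks of a region often differed in extent between diets, so its folds can be averages over different bases. The centre was the midpoint of the stretch called in all diets, or of the region. Shares have 95% Wilson intervals from scipy 1.17.1. Ratios of at least 25% upwards or 20% downwards were counted without a test. The steps were tested on simulated data.

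The regions and the gene and motif lists were chosen with earlier results of these data known. Named were up to 3 genes with most regions per list, the 5 genes with most regions, the 5 strongest regions under 50% repeat-masked, and the 4 largest ratios in each direction for HFD over RD and HFD-O304 over HFD under the same repeat limit. RNA gene arrays, single RNA genes and further list genes were added after their values were seen. The values of 1 channel gene and the sequence of 1 region are not reported here.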

Additional observations from a re-analysis of the deposited data

How the results depend on the processing

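No paired analysis was possible because each list joins both replicates of its group, which also keeps any replicate from being left out. Depth limits weak regions, since 321 of 1639 reached a −log10 q of 5 in all diets. Of 402 recomputed values, 279 stayed within the interval or, for counts, within 1.5 times of the value given. The other 123 moved, 57 of which were shares of single motifs. A change of direction was not scored. The balance of higher and lower regions did turn round under some settings. Examples are HFD against RD without repeat-masked regions, and HFD-O304 against RD with centred ratios or with H3K27Me3 regions kept. Shares of all H3K27Ac regions were not computed under these settings, so the turns are not read as traits of the distal regions. The cause of a move was not tested unless the setting's construction shows it. Joining peaks at 50% overlap of the shorter peak, using the highest peak, using pileup scaled to the kept fragments, and leaving out regions with no stretch called in all diets moved none of the results given for them.

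Requiring a −log10 q of at least 5 left 322 regions, with 23.0% within genes, a median distance of 22.5 kb, 4.66% with a neighbour, median folds of 3.17, 3.14 and 3.23 in RD, HFD and HFD-O304, GC of 60.8% and a motif in 50.3%. HFD was then higher than RD in 6 and lower in 14, HFD-O304 higher than HFD in 7 and lower in 2, and HFD-O304 higher than RD in 7 and lower in 7. Keeping regions with H3K27Me3 gave 3119, with 39.7% within genes, 26.96 kb, folds of 2.64, 2.66 and 2.70 and a motif in 46.4%, and the counts were 62 and 102, 64 and 43, and 66 and 80 in the same order. A common fold cutoff of 2.28 moved the HFD and HFD-O304 medians to 2.63 and 2.67. A start-site window of 5 kb gave 39.1% within genes and 26.4 kb. Start sites of genes of every type gave 49.3% within genes, 11.04% with a neighbour, folds of 2.58 in HFD and 2.62 in HFD-O304, GC of 53.7%, and 16 and 23 regions higher than RD in HFD and HFD-O304. With no length limit 47.6% were within genes and 16.6% had a neighbour. Without regions at least 50% repeat-masked, 47.1% were within genes at 16.8 kb, folds were 2.55 in RD and 2.62 in HFD-O304, GC was 55.7%, 59.2% had a motif, 9 were lower in HFD than RD, 19 higher in HFD-O304 than HFD and 5 lower in HFD-O304 than RD. Centred ratios gave 12 higher and 56 lower for HFD against RD, and 11 and 51 for HFD-O304 against RD. A window of 600 bases gave GC of 54.0% and a motif in 78.0%, as more bases were searched.

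Chosen after seeing the data, assignment within 100 kb raised the list genes with a region from 44 to 67 of 194. Without CpG-rich regions, 48.7% were within genes, 10.1% had a neighbour, folds were 2.54, 2.54 and 2.59, GC was 52.5%, and 13 were higher in HFD than RD, 19 in HFD-O304 than HFD and 13 in HFD-O304 than RD.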

Other observations

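Further micro-RNA genes lay at constitutive distal regions that no list above describes. A region near Hsd17b12 had folds of 2.52 in RD, 2.40 in HFD and 2.47 with HFD-O304. The starts of Mir129-2 and Mir129b lay within 1 kb of it. One near Rassf7, within 1 kb of the start of Mir210, a micro-RNA induced by low oxygen, had 2.48, 2.58 and 2.78. Host genes of small nucleolar RNAs were also present, with Snhg8 at 3.63, 3.45 and 3.66 and Snhg12 at 2.88, 2.80 and 3.20. The Pvt1 gene downstream of Myc, a growth regulator, had a region with 2.69, 2.51 and 2.83. Each of these was chosen after its values were seen, and none was tested.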
